A study of Arabidopsis thaliana with 12 samples.

Results

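The WRKY factors described here are 10 transcription factors of Arabidopsis thaliana that respond to pathogens, wounding and abiotic stress: WRKY6 (AT1G62300), WRKY11 (AT4G31550), WRKY18 (AT4G31800), WRKY22 (AT4G01250), WRKY33 (AT2G38470), WRKY40 (AT1G80840), WRKY46 (AT2G46400), WRKY53 (AT4G23810), WRKY60 (AT2G25000) and WRKY70 (AT3G56400). They were taken by name from the deposited expression table, where they are 10 of 24616 genes, and all 10 were above the low-value filter of the tests. Expression was measured by RNA sequencing of whole seedlings at 14 days, raised at 22 °C in long days and then kept at 4 °C for 0, 3 or 24 h. The 6 groups of 2 libraries each were the mutant line cbfs-1 at 0, 3 and 24 h and the wild type (WT, Col) at 0, 3 and 24 h, 12 libraries in all. The name cbfs-1 is that of a line mutated in the cold-induced transcription factor genes CBF1, CBF2 and CBF3, but the labels do not describe its lesions and give no number of plants per library.

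WRKY proteins bind DNA through a domain that carries a conserved WRKYGQK motif and a zinc finger, and their classical site is the W box, which has the core TTGAC. Many WRKY genes are switched on within minutes to hours of pathogen signals, wounding or heat and cold, in part downstream of calcium signals and MAP kinase cascades, and many have W boxes in their own promoters. They act as activators and repressors of defence, senescence and abscisic acid responses, often in overlapping pairs.

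The libraries held 16849042 to 22800552 reads. Levels are read counts divided by each library's size factor (normalised counts), so that 3 reads, taken as the floor, equal 2.46 to 3.28. Changes are differences of log2(normalised count + 1) with their standard errors, tested with limma over 20666 genes and adjusted by the Benjamini-Hochberg method. Gene positions are those of the RefSeq annotation of TAIR10.1. A gene is said to have risen or fallen where the adjusted p was below 0.05. Whether the 2 libraries of a group are separate cultures is not stated, so each p-value reflects no more than the spread of these libraries, part of which can be technical. In the mutant at 3 h, CBF3 stood at 1158 and 1095 normalised counts, against 6133 and 7126 in WT. Its cbfs-1 libraries were above the WT ones at 0 h (175 and 138, against 15.3 and 7.59) and at 24 h (893 and 799, against 404 and 180). At 3 h CBF1 (1540 and 2475 in cbfs-1, 1129 and 2023 in WT) and CBF2 (7570 and 8377 in cbfs-1, 5093 and 6769 in WT) were present in both genotypes. The 3 genes are related in sequence, and whether reads were split among them was not tested.

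The 300 bases before the annotated start of each gene were searched on both strands for the TTGAC core and for the CRT/DRE core CCGAC, the site bound by CBF proteins. TTGAC was found in 8 of the 10 windows and in 50.8% of 23350 such windows over all genes, and CCGAC in 1 of 10 and in 14.3% over all genes. The full W box (TTGACC or TTGACT) was found in 3 of the 10 windows, those of WRKY33, WRKY53 and WRKY11, and in 32.4% over all genes. The RefSeq TAIR10.1 sequences of 3 of these windows are shown because the genes rose the most in WT after 3 h and differ in these motifs: WRKY33 (chr2:16107935-16108234, + strand) has 3 W boxes, WRKY40 (chr1:30383261-30383560, + strand) has 2 TTGAC cores and the CCGAC core, and WRKY18 (chr4:15382477-15382776, + strand) has none of them. Capitals mark TTGAC and CCGAC, or their reverse complements.
WRKY33: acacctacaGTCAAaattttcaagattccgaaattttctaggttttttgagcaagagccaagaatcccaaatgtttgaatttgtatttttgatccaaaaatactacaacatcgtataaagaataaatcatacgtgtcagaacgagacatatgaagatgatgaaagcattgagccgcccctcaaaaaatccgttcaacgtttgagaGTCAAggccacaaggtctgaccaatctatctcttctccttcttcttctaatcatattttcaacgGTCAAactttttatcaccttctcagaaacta
WRKY40: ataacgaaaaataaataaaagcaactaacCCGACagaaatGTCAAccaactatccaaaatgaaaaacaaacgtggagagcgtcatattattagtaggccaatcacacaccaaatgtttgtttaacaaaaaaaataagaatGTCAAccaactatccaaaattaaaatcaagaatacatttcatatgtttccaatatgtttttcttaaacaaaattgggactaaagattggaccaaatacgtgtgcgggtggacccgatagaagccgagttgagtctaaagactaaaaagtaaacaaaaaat
WRKY18: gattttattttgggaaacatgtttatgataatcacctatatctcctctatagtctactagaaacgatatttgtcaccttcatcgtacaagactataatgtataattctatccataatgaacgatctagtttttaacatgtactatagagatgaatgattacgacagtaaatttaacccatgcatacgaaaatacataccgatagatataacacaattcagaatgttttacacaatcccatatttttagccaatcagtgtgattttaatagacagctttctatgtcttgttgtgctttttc
A match of letters is a description of the window and does not show that a protein binds there.

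After 3 h at 4 °C, 4 of the 10 WRKY transcripts rose in cbfs-1 and 6 rose in WT. Among those called, WRKY33 and WRKY6 led in the mutant and WRKY40, WRKY18 and WRKY33 in WT. The largest log2 difference in cbfs-1 was that of WRKY40 (1.60), which did not pass (limma adjusted p = 0.144). WRKY70 fell in cbfs-1, and no member fell in WT. Over all genes tested, 8.85% changed in cbfs-1 (6.43% rose, 2.41% fell) and 10.1% changed in WT (6.89% rose, 3.21% fell). The median log2 change of the 10 members was 0.67 in cbfs-1 and 1.00 in WT, against a median over all genes of -0.02 in each genotype. At 24 h against 0 h, WRKY6 was the 1 member that was called higher in both genotypes.

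**Figure D1:**
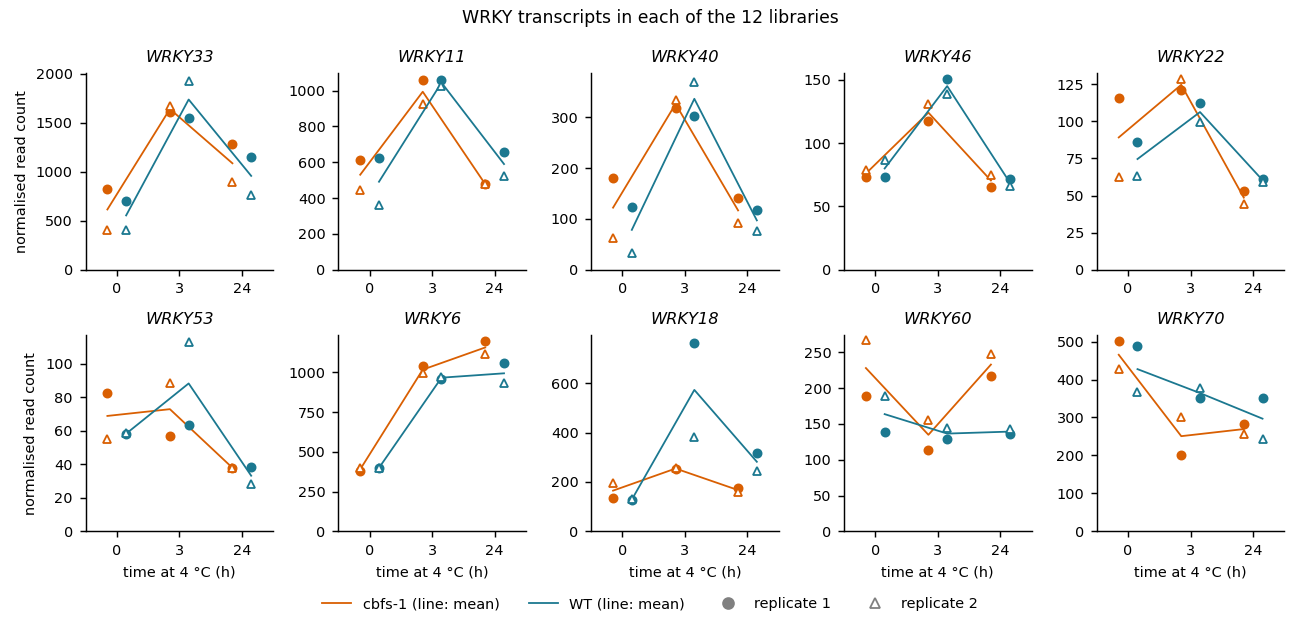
Normalised read count (vertical axis, linear, from 0) of each WRKY transcript against hours at 4 °C, with a point per library and a line through the mean of 2 libraries, cbfs-1 in orange and WT in blue. For WRKY33, WRKY11, WRKY40, WRKY46, WRKY18 and WRKY22, both 3 h libraries lie above all others of the same genotype. WRKY6 stays high at 24 h, and the 2 WT libraries at 3 h lie apart for WRKY18 (763 and 381).

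WRKY33, a substrate of the immune MAP kinases MPK3 and MPK6 and an activator of camalexin synthesis against necrotrophic fungi, lies at chr2:16108235-16110766 on the + strand. In cbfs-1, replicates 1 and 2 held 825 and 405 normalised counts (0 h), 1605 and 1675 (3 h) and 1283 and 891 (24 h). In WT they held 700.0 and 409 (0 h), 1546 and 1929 (3 h) and 1152 and 764 (24 h). In each genotype both 3 h libraries were above every 0 h and 24 h library, and both 24 h libraries were above both 0 h libraries. WRKY33 rose at 3 h by a log2 change of 1.50 ± 0.36 in cbfs-1 (SE; limma adjusted p = 0.0308) and 1.69 ± 0.36 in WT (adjusted p = 0.0164). At 24 h the log2 differences from 0 h, 0.88 in cbfs-1 (adjusted p = 0.0673) and 0.81 in WT (adjusted p = 0.0874), did not pass the test. The mutant's 3 h call was lost without cbfs-1 0 h replicate 2 (adjusted p = 0.198), 3 h replicate 1 (0.142) or 3 h replicate 2 (0.107), and that of WT without WT 0 h replicate 2 (0.121), 3 h replicate 1 (0.0603) or 3 h replicate 2 (0.0707). The annotation has 2 genes on the opposite strand that overlap WRKY33, by 272 bases (a long non-coding RNA that is not among the rows used) and by 26 bases, and the strandedness of the counting is not given, so some of its reads cannot be assigned.

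WRKY22, which acts downstream of a MAP kinase cascade in the response to bacterial flagellin, lies at chr4:522530-524249 on the - strand. In cbfs-1 it held 116 and 62.5 normalised counts (0 h), 121 and 128 (3 h) and 52.8 and 44.4 (24 h). WT libraries had 86.3 and 62.9 (0 h), 113 and 99.9 (3 h) and 61.4 and 59.5 (24 h). All 24 h libraries were below all 0 h libraries of their genotype. Its 3 h changes did not pass the test (0.54 ± 0.27 in cbfs-1 and 0.52 ± 0.27 in WT; adjusted p = 0.274 and 0.282 by limma). Between 3 h and 24 h it fell in both genotypes, by 1.35 ± 0.27 in cbfs-1 (adjusted p = 0.00345) and by 0.80 ± 0.27 in WT (adjusted p = 0.0358), and in cbfs-1 it also fell below its 0 h level (log2 change -0.80, adjusted p = 0.0324). The WT fall lost its call without any 1 of the 4 WT libraries at 3 h and 24 h (adjusted p 0.0713 to 0.144), and the fall below 0 h in cbfs-1 lost it without cbfs-1 0 h replicate 1 (change -0.36, adjusted p = 0.246), 24 h replicate 1 (0.0675) or 24 h replicate 2 (0.151). In whole seedlings, a lower value can come from fewer cells of a type or from less RNA per cell, and these cannot be told apart.

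WRKY40, WRKY18 and WRKY60 form the group IIa of the family, bind to each other and modulate immunity and abscisic acid signalling with partly shared roles. WRKY40, at chr1:30383561-30385499 on the + strand, held 181 and 63.4 normalised counts (0 h), 318 and 335 (3 h) and 141 and 92.4 (24 h) in cbfs-1. In WT it held 123 and 33.6 (0 h), 303 and 370.0 (3 h) and 117 and 77.0 (24 h). All 3 h libraries were above all others of their genotype, and at 0 h replicate 1 was far above replicate 2 in both genotypes, by a log2 difference of 1.50 in cbfs-1 and 1.84 in WT. In cbfs-1 the log2 difference of WRKY40 at 3 h was 1.60 ± 0.59 and did not pass by limma (adjusted p = 0.144), but it did with the replicate number as a block (adjusted p = 0.0429). In WT it rose at 3 h by 2.36 ± 0.59 (adjusted p = 0.0341). From 3 h to 24 h the log2 difference in cbfs-1 was -1.51 and did not pass by limma (adjusted p = 0.0654). It did pass with the replicate block, by edgeR and by DESeq2. In WT WRKY40 fell over that interval (log2 change -1.80, limma adjusted p = 0.0338). The WT rise lost its call without WT 0 h replicate 2 (1.43, adjusted p = 0.198), WT 3 h replicate 1 (0.123), WT 3 h replicate 2 (0.110) or either cbfs-1 24 h library (0.0530 each), and the WT fall lost it without any 1 of the 4 WT libraries at 3 h and 24 h (0.0653 to 0.161). A gene on the opposite strand overlaps WRKY40 by 51 bases.

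WRKY18, at chr4:15382777-15385100 on the + strand, was the member whose genotypes stood farthest apart during cold. The mutant libraries held 136 and 194 normalised counts (0 h), 253 and 256 (3 h) and 174 and 160.4 (24 h). The WT libraries held 126 and 131 (0 h), 763 and 381 (3 h) and 318 and 245 (24 h). At 3 h and at 24 h both cbfs-1 libraries were below both WT libraries, while at 0 h both were above them. In each genotype, however, both 3 h libraries of WRKY18 were above every 0 h and 24 h library. In cbfs-1 the log2 difference from 0 h was 0.65 at 3 h (limma unadjusted p = 0.0495, adjusted p = 0.224). At 24 h it was 0.04 (adjusted p = 0.920), and neither passed the test. In WT, WRKY18 rose at 3 h by 2.06 ± 0.29 (adjusted p = 0.00201) and was still raised at 24 h (1.11 ± 0.29, adjusted p = 0.0101; 0.0743 without WT 24 h replicate 1). Between 3 h and 24 h it fell in WT by 0.95 ± 0.29 (adjusted p = 0.0245), a call lost without WT 3 h replicate 1 (change -0.45, adjusted p = 0.162) or WT 24 h replicate 2 (0.139). The log2 difference between the genotypes was -1.08 ± 0.29 at 3 h (unadjusted p = 0.00396, adjusted p = 0.705) and -0.74 ± 0.29 at 24 h (unadjusted p = 0.0286, adjusted p = 0.395), so neither passed the test over all genes. The difference between their 3 h responses was -1.42 ± 0.41 (unadjusted p = 0.00623, adjusted p = 1.00).

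WRKY60, at chr2:10629662-10631413 on the + strand, did not share the 3 h rise that WRKY40 and WRKY18 had in WT. In cbfs-1 it held 189 and 267 normalised counts (0 h), 114 and 156 (3 h) and 218 and 248 (24 h). In WT it held 139 and 189 (0 h), 129 and 144 (3 h) and 135 and 143 (24 h). The mutant's 3 h libraries were below its 0 h and 24 h libraries, and the WT libraries of the 3 times overlapped. In cbfs-1 the log2 difference at 3 h was -0.75 ± 0.21 and did not pass by limma (adjusted p = 0.0619), but it did with the replicate block (adjusted p = 0.00487) and without cbfs-1 0 h replicate 1 (0.0484). From 3 h to 24 h WRKY60 rose in cbfs-1 by 0.80 ± 0.21 (adjusted p = 0.0147), a call lost without cbfs-1 3 h replicate 1 (0.107) or 24 h replicate 2 (0.0883). WT gave changes of -0.25 ± 0.21 at 3 h (adjusted p = 0.553) and 0.03 ± 0.21 from 3 h to 24 h (adjusted p = 0.923). At 24 h both cbfs-1 libraries were above both WT libraries, with a log2 difference of 0.73 ± 0.21 that did not pass the test (unadjusted p = 0.00690, adjusted p = 0.199) but did with the replicate block (adjusted p = 0.0239).

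WRKY11, a calmodulin-binding factor that limits basal resistance together with WRKY17, lies at chr4:15289788-15291934 on the - strand. It held 613 and 448 normalised counts (0 h), 1062 and 926 (3 h) and 476 and 479 (24 h) in cbfs-1. The WT libraries had 624 and 359 (0 h), 1062 and 1027 (3 h) and 657 and 523 (24 h). Every 3 h library was above every library of the other times, and the 24 h and 0 h libraries overlapped. WRKY11 rose at 3 h by 0.92 ± 0.24 in cbfs-1 (limma adjusted p = 0.0422) and 1.14 ± 0.24 in WT (adjusted p = 0.0148), and fell from 3 h to 24 h by 1.05 ± 0.24 in cbfs-1 (adjusted p = 0.00659) and 0.83 ± 0.24 in WT (adjusted p = 0.0192). The mutant's rise stood near the threshold and lost its call without any 1 of 10 of the 12 libraries, all but the WT 0 h ones (adjusted p 0.0516 to 0.253). The rise in WT was lost without WT 0 h replicate 2 (0.0750) or 3 h replicate 1 (0.0885), and the fall in WT without WT 3 h replicate 1 (0.0755), 3 h replicate 2 (0.0563) or 24 h replicate 2 (0.118).

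WRKY6, a factor linked to senescence, defence and the repression of the phosphate exporter gene PHO1, lies at chr1:23016569-23019494 on the - strand and changed with the smallest error of the 10. In cbfs-1 it held 379.6 and 401 normalised counts (0 h), 1041 and 995 (3 h) and 1196 and 1119 (24 h). In WT it held 399.7 and 399 (0 h), 961 and 973 (3 h) and 1058 and 932 (24 h). All cold libraries were more than 2-fold above all 0 h libraries. WRKY6 rose at 3 h by 1.38 ± 0.09 in cbfs-1 (limma adjusted p = 3.71e-05) and 1.27 ± 0.09 in WT (adjusted p = 4.43e-05), and the change at 24 h was 1.57 ± 0.09 in cbfs-1 (adjusted p = 5.18e-06) and 1.31 ± 0.09 in WT (adjusted p = 9.20e-06). These 4 calls held under every alternative run. Between 3 h and 24 h the differences of 0.18 in cbfs-1 (adjusted p = 0.112) and 0.04 in WT (adjusted p = 0.754) did not pass. PHO1 differed at 3 h from 0 h by a log2 value of -0.04 in cbfs-1 (adjusted p = 0.899) and -0.06 in WT (adjusted p = 0.833), where WRKY6 had risen. At 24 h against 0 h the PHO1 difference was -0.34 in cbfs-1 and did not pass (adjusted p = 0.0531), and in WT PHO1 fell by 0.43 ± 0.13 (adjusted p = 0.0194).

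WRKY46, WRKY53 and WRKY70 are group III factors of the salicylate branch of defence. WRKY46, which also acts in drought and aluminium responses, lies at chr2:19043411-19044955 on the - strand. It held 73.4 and 78.6 normalised counts (0 h), 117 and 131 (3 h) and 65.7 and 75.2 (24 h) in cbfs-1. In WT it held 73.2 and 86.8 (0 h), 151 and 139 (3 h) and 71.9 and 66.3 (24 h). The 3 h libraries were again above all others of their genotype. It rose at 3 h by 0.70 ± 0.15 in cbfs-1 (limma adjusted p = 0.0176) and 0.85 ± 0.15 in WT (adjusted p = 0.00600), and fell from 3 h to 24 h by 0.81 ± 0.15 in cbfs-1 (adjusted p = 0.00226) and 1.06 ± 0.15 in WT (adjusted p = 5.51e-04). The falls held under every alternative run, while the rise in cbfs-1 was lost without any 1 of the 4 cbfs-1 libraries at 0 h and 3 h (adjusted p 0.0695 to 0.101) and the rise in WT without WT 3 h replicate 1 (0.0567).

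WRKY53, a promoter of leaf senescence at chr4:12392370-12393982 on the - strand, had the lowest level per kilobase of exon of the 10. It held 82.8 and 54.9 normalised counts (0 h), 57.1 and 88.6 (3 h) and 37.7 and 38.1 (24 h) in cbfs-1. In WT it held 57.9 and 58.6 (0 h), 63.4 and 113 (3 h) and 38.1 and 28.3 (24 h). The 24 h libraries were below all 0 h and 3 h libraries in both genotypes, and replicate 2 was above replicate 1 at 3 h in both. From 3 h to 24 h WRKY53 fell by 0.89 ± 0.32 in cbfs-1 (limma adjusted p = 0.0473) and by 1.34 ± 0.32 in WT (adjusted p = 0.00833). The 3 h differences from 0 h did not pass (0.08 in cbfs-1, adjusted p = 0.921, and 0.53 in WT, adjusted p = 0.363). The mutant's fall was lost without cbfs-1 3 h replicate 2 (0.259), either cbfs-1 24 h library (0.145 and 0.138), either WT 0 h library (0.0602 each) or either WT 24 h library (0.0550 and 0.0547), and the WT fall without WT 3 h replicate 2 (0.0589) or WT 24 h replicate 2 (0.0590). WRKY53 overlaps AT4G23800 on the opposite strand by 341 bases, a gene that reached 1495 normalised counts, so its low counts are uncertain.

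WRKY70, a node between salicylate and jasmonate signalling at chr3:20908711-20910623 on the - strand, fell during cold in cbfs-1. It held 503 and 428 normalised counts (0 h), 201 and 301 (3 h) and 283 and 256 (24 h) in cbfs-1. In WT it held 488 and 367 (0 h), 352 and 377 (3 h) and 350.1 and 244 (24 h). In cbfs-1 both cold groups were below both 0 h libraries. In WT the 3 h libraries overlapped the 0 h ones, and both 24 h libraries were below both 0 h ones. WRKY70 fell in cbfs-1 by 0.91 ± 0.23 at 3 h (limma adjusted p = 0.0362) and by 0.78 ± 0.23 at 24 h (adjusted p = 0.0181). In WT the log2 differences of -0.22 at 3 h (adjusted p = 0.629) and -0.53 at 24 h (adjusted p = 0.0762) did not pass. The WT difference at 24 h did pass with the replicate block by time and with upper-quartile scaling. Between the genotypes, the 24 h responses differed by -0.25 ± 0.32, which did not pass (limma unadjusted p = 0.455). The difference between the genotypes' 3 h responses, -0.70 ± 0.32, did not pass either (unadjusted p = 0.0562, adjusted p = 1.00). The 3 h call was lost without cbfs-1 0 h replicate 1 (0.170), 0 h replicate 2 (0.0992), 3 h replicate 1 (0.255), 24 h replicate 1 (0.0592) or 24 h replicate 2 (0.0593), and the 24 h call without cbfs-1 0 h replicate 1 (0.102), 24 h replicate 1 (0.0544) or 24 h replicate 2 (0.0923).

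**Figure D2:**
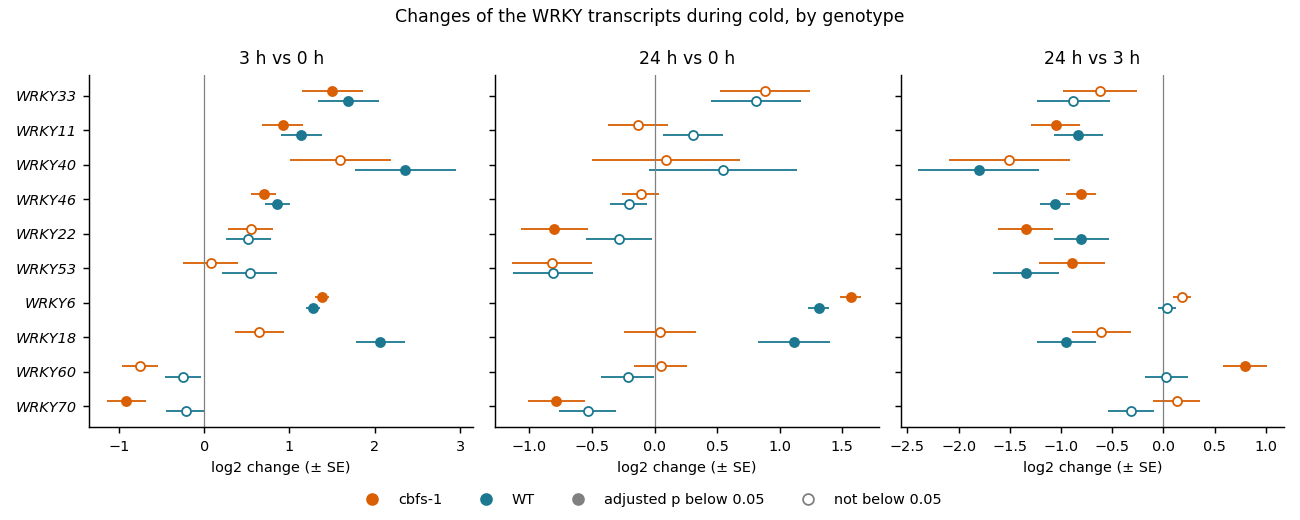
Log2 change (horizontal axis, point with its standard error) of each WRKY transcript at 3 h against 0 h, 24 h against 0 h and 24 h against 3 h, cbfs-1 in orange above WT in blue, with filled points where the limma adjusted p was below 0.05. WRKY6 lies right of 0 at both times in both genotypes, and the panel of 24 h against 3 h has filled points left of 0 for WRKY11, WRKY46, WRKY22 and WRKY53 in both.

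At 24 h against 0 h the count of changed members was no higher than the background. In cbfs-1, WRKY6 rose and WRKY22 and WRKY70 fell, 3 of 10, where 48.2% of all genes changed (24.9% rose, 23.3% fell). In WT, WRKY6 and WRKY18 rose, 2 of 10, where 50.0% of all genes changed (25.7% rose, 24.3% fell). The members' median log2 change was -0.03 in cbfs-1 and 0.05 in WT, against 0.00091 in cbfs-1 and -0.0033 in WT over all genes. Between 3 h and 24 h, 4 members fell and WRKY60 rose in cbfs-1 (42.6% of all genes changed, 21.3% rose and 21.4% fell), and 6 fell in WT (42.8% of all genes changed, 21.3% rose and 21.5% fell). The median log2 change over that interval was -0.71 in cbfs-1 and -0.86 in WT, against -0.012 in cbfs-1 and -0.0047 in WT over all genes.

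Without a replicate block, no member differed between cbfs-1 and WT at an adjusted p below 0.05 at any time by limma, where 0.0387% of genes did at 0 h, 0.0290% at 3 h and 0.808% at 24 h. At an unadjusted p below 0.05 there were 0 members at 0 h, 2 at 3 h (WRKY18 and WRKY70) and 3 at 24 h (WRKY18, WRKY60 and WRKY6). Of all 20666 genes tested, 677 were below that unadjusted threshold at 0 h, 696 at 3 h and 2154 at 24 h. No member was called by edgeR or DESeq2 either, but with the replicate block in limma WRKY60 was higher in cbfs-1 at 24 h (adjusted p = 0.0239). For WRKY33 the 95% interval of the log2 difference between cbfs-1 and WT at 3 h ran from -0.88 to 0.73, for WRKY40 from -1.36 to 1.29, and for WRKY6 from -0.12 to 0.27. The interval was thus widest for WRKY40 and narrowest for WRKY6, and a p that misses the threshold does not show that the genotypes are alike. For no member did the difference between the genotypes' responses pass the test at 3 h (0.00484% of genes passed) or 24 h (0.00968%). WRKY18 was the 1 member at an unadjusted p below 0.05 at each time. Here too, a miss of the threshold does not show that the responses are alike. For these response differences, 309 of 20666 genes were below that unadjusted threshold at 3 h and 966 at 24 h.

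**Figure D3:**
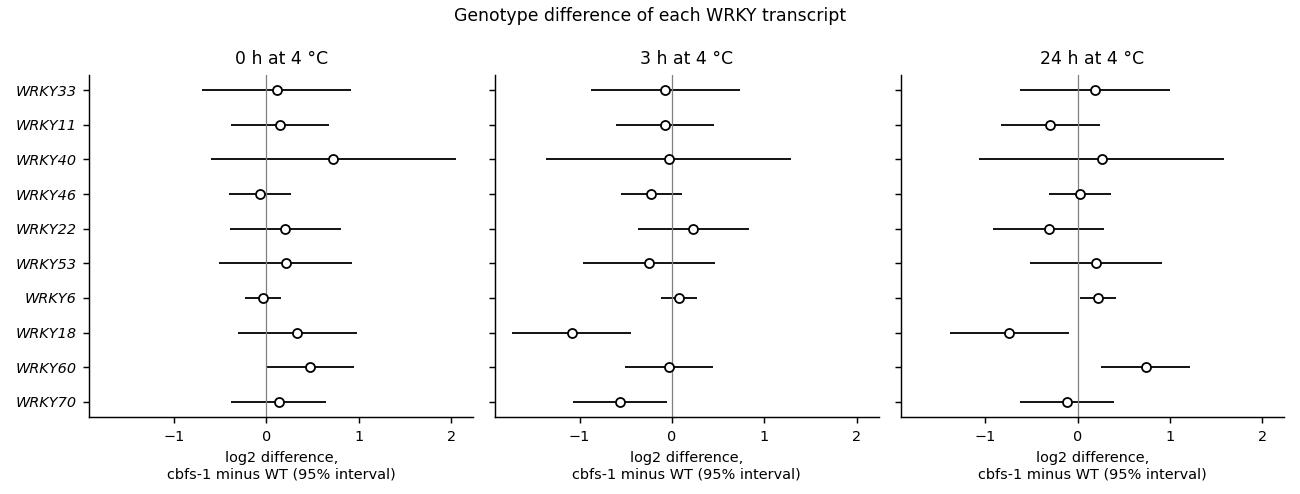
Log2 difference of cbfs-1 minus WT (horizontal axis, point with its 95% interval from the limma fit) for each WRKY transcript at 0, 3 and 24 h at 4 °C; open points mark adjusted p of 0.05 or more, which holds for all 30. The intervals of WRKY18 at 3 h (-1.73 to -0.44) and WRKY60 at 24 h (0.25 to 1.22) lie farthest from 0.

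Per kilobase of exon, the order of the 10 transcripts changed with cold. At 0 h WRKY70, WRKY33 and WRKY11 led, with 317, 303 and 292 normalised counts per kb in cbfs-1 and 291, 273 and 270 in WT (means of 2 libraries), and their libraries overlapped, so their order is not resolved. At 3 h WRKY33 led with 809 ± 24.5 in cbfs-1 and 857 ± 134 in WT (SD, n = 2), followed without overlap by WRKY11 (547 in cbfs-1, 575 in WT) and WRKY6 (439 and 417). By 24 h WRKY33 (536 in cbfs-1, 472 in WT) and WRKY6 (499 and 429) overlapped at the top. WRKY53 was lowest in all 6 groups, with 25.0 per kb in cbfs-1 and 21.9 in WT at 24 h.

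Across the 12 libraries the members fell into unlike patterns on the log2 scale. WRKY11 and WRKY40 correlated at a Pearson r of 0.937, WRKY33 and WRKY40 at 0.911, and WRKY6 and WRKY70 at -0.758; these values describe libraries that share 6 group means and carry no test. Of 14983 genes with a mean of at least 100, those most like WRKY33 were MPK3 (r = 0.977), CBF2 (0.965), RAV1 (0.963) and ERF2 (0.962). MPK3 held 1274 and 921 normalised counts (0 h), 2513 and 2393 (3 h) and 2069 and 1556 (24 h) in cbfs-1, and 1119 and 840 (0 h), 2439 and 2328 (3 h) and 1642 and 1371 (24 h) in WT. As with WRKY33, replicate 1 was the higher at 0 h and at 24 h in both genotypes. The genes most like WRKY40 were AT1G25400 (0.973), EXO70B1 (0.962), AT1G78460 (0.957) and CIPK20 (0.955), those most like WRKY53 were led by NUDT21 (0.937), and those most like WRKY70 by AIB (0.891).

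The MAP kinase cascade upstream of several WRKY factors was described through 10 genes. At 3 h, 4 of the 10 rose and none fell in each genotype: MPK11 by 1.96 ± 0.25 in cbfs-1 and 2.27 ± 0.25 in WT, MPK3 by 1.18 ± 0.19 in cbfs-1 and 1.30 ± 0.19 in WT, MEKK1 by 0.90 ± 0.09 in cbfs-1 and 0.86 ± 0.09 in WT, and MKK4 by 0.47 ± 0.10 in cbfs-1 and 0.71 ± 0.10 in WT (limma adjusted p from 0.000330 to 0.0210). Over all genes tested, 6.43% rose in cbfs-1 and 6.89% in WT at 3 h. The list's median log2 change was 0.18 in cbfs-1 and 0.29 in WT, against -0.02 over all genes in each genotype. At 24 h against 0 h, 4 had risen and 2 had fallen in each genotype, 6 of 10, where 48.2% of all genes in cbfs-1 and 50.0% in WT changed. Of 3 VQ-motif proteins that bind WRKY33 and related factors (MKS1, SIB1 and SIB2), none passed the test at 3 h (1 at an unadjusted p below 0.05 in each genotype), and SIB2 rose at 24 h by 0.83 ± 0.25 in cbfs-1 and 0.76 ± 0.25 in WT (adjusted p = 0.0211 and 0.0293).

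Genes known as WRKY targets were described through a list of 13, of which 12 were in the table and 11 were tested. At 3 h, 1 rose in cbfs-1 (NCED5, an abscisic acid synthesis gene, at a mean of 12.5 normalised counts at 3 h and 0.473 at 0 h). None passed the test in WT, where 4 were at an unadjusted p below 0.05, as were 4864 of 20666 genes. Over all genes, 8.85% changed in cbfs-1 and 10.1% in WT. In WT NCED5 had means of 9.97 at 3 h and 1.63 at 0 h (log2 difference 2.08, limma adjusted p = 0.0658). Its 0 h means were below the floor of 3 reads in both genotypes. At 24 h against 0 h, 4 rose and 1 fell in cbfs-1, and 4 rose and 2 fell in WT, which is 5 and 6 of 11 tested, close to the 48.2% and 50.0% of all genes that changed. PAD3, the last enzyme of camalexin synthesis, rose by 0.98 ± 0.21 in cbfs-1 (limma adjusted p = 0.00438) and 1.08 ± 0.21 in WT (adjusted p = 0.00255). ABI5, an abscisic acid response factor, rose by 2.83 ± 0.46 in cbfs-1 (adjusted p = 0.00105) and 3.17 ± 0.46 in WT (adjusted p = 5.14e-04). ICS1, the salicylate synthesis enzyme, fell by 0.84 ± 0.15 in cbfs-1 (adjusted p = 0.00169) and 1.01 ± 0.15 in WT (adjusted p = 5.48e-04). FRK1, a flagellin-induced receptor kinase, held 269 and 296 normalised counts at 24 h in cbfs-1 and 290 and 217 in WT, against 119 and 118 at 0 h in cbfs-1 and 54.6 and 44.5 in WT. Its 24 h libraries were above its 0 h libraries in both genotypes, and it rose by 1.24 ± 0.33 in cbfs-1 (adjusted p = 0.0128) and 2.33 ± 0.33 in WT (adjusted p = 4.81e-04).

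Against the rest of the family the 10 members were not alone in rising. Of the 56 other WRKY genes in the table, 49 were tested, and at 3 h 14 rose in cbfs-1 and 16 in WT while none fell (6.43% of all genes rose in cbfs-1 and 6.89% in WT); their median log2 change was 0.34 in cbfs-1 and 0.39 in WT. Changes above 0 were found for 8 of the 10 members in each genotype and for 35 of the 49 others in cbfs-1 and 33 in WT. WRKY25 rose by 2.04 ± 0.20 in cbfs-1 and 2.08 ± 0.20 in WT, and WRKY48 by 1.76 ± 0.12 in cbfs-1 and 2.01 ± 0.12 in WT (limma adjusted p from 3.09e-05 to 3.88e-04). In the comparison of genotypes at 24 h, WRKY45 was the 1 other member of the family that was called: it held 206 and 178 normalised counts in cbfs-1, against 104 and 95.5 in WT, and was higher in cbfs-1 by 0.94 ± 0.16 (adjusted p = 0.0347).

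**Figure D4:**
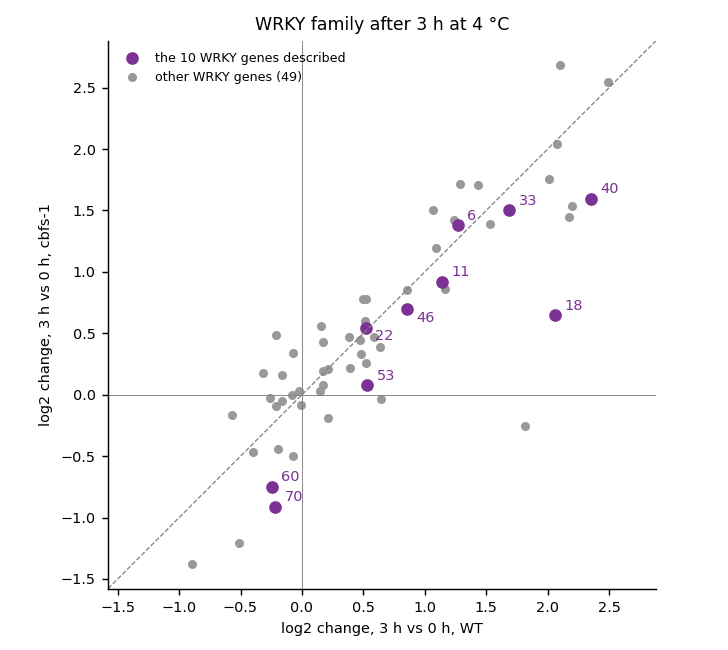
Log2 change at 3 h against 0 h in cbfs-1 (vertical axis) and in WT (horizontal axis) for the 10 WRKY genes described, in purple and numbered, and 49 other WRKY genes, in grey; the dashed line marks equal change. WRKY18 lies below the line, at 0.65 in cbfs-1 and 2.06 in WT, and the grey point farthest below it is WRKY58 (-0.26 in cbfs-1 and 1.81 in WT), which passed the test in neither genotype.

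Other signals moved with the 3 h rise. The touch-induced genes TCH2, TCH3 and TCH4 all rose at 3 h and fell by 24 h in both genotypes: their summed level was 6628 to 7179 normalised counts in cbfs-1 and 6668 to 6728 in WT at 3 h, against 1872 to 2854 in cbfs-1 and 1367 to 2073 in WT at 0 h. Of 9 circadian clock genes, 6 rose at 3 h and 7 at 24 h in each genotype. Over all genes, 6.43% rose in cbfs-1 and 6.89% in WT at 3 h, and 24.9% and 25.7% at 24 h. At 0 h the clock gene LHY was lower in replicate 1 than in replicate 2, with log2 differences of -2.20 in cbfs-1 and -2.31 in WT. At 3 h the LHY differences between replicates were -2.54 in cbfs-1 and -2.70 in WT, and other clock genes differed otherwise. PRR7 was higher in replicate 1 at 0 h (1.00 in cbfs-1, 0.85 in WT) and at 3 h (0.78 and 0.68). ELF4 was lower in replicate 1 at 0 h (-0.77 in cbfs-1, -0.58 in WT) and higher at 3 h (1.44 and 1.49). For WRKY40 the 3 h differences were -0.07 in cbfs-1 and -0.29 in WT, and for WRKY33 they were -0.06 and -0.32. Of 7 root markers none passed at 3 h by limma (1 in cbfs-1 and 2 in WT at an unadjusted p below 0.05), and of 4 markers of green tissue none did (0 at an unadjusted p below 0.05). In the same lists, at 24 h 3 root markers and 1 green tissue marker fell in each genotype (23.3% of all genes fell in cbfs-1 and 24.3% in WT), with summed root levels of 1553 to 1827 in cbfs-1 and 1659 to 1678 in WT, against 2065 to 2180 in cbfs-1 and 2030 to 2319 in WT at 0 h. The part of touch, clock phase and tissue make-up in the WRKY changes was not tested.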

How the data were processed

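RNA sequencing counts of 12 libraries (6 groups of 2, grouped by the sample titles) came as a deposited table of 24616 genes. The authors' values are a signal, gene read counts divided by a DESeq2 size factor per library, as the table's name and values show. Per the submitters' processing notes the build was TAIR10 and the tools were DESeq2, HTSeq 0.6.0, TopHat2 2.1.0 and Cufflinks 2.2.1. Their settings and the strandedness of the libraries are not stated in the labels or headers. In every library 100% of the values were whole multiples of the value of 1 read, within 0.001 of a read, so reads were recovered by division; size factors were 0.914 to 1.22.

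The test was limma 3.58.1 in R 4.3.3 (lmFit, contrasts.fit, eBayes with a trend) on log2(value + 1). It took the 20666 genes that reached 10 in 2 or more libraries, with 6 group means and 6 residual degrees of freedom, and Benjamini-Hochberg adjustment over all genes within each of 11 contrasts. edgeR 4.0.16 (quasi-likelihood) and DESeq2 1.42.0 were run on the recovered reads as alternatives, beside other pseudocounts, filters, scalings, a replicate block and the leaving out of each library. In a test on simulated data for cbfs-1 at 3 h against 0 h over 20666 genes, limma called 79% of 100 genes changed 2-fold, 98% of 100 changed 4-fold and 0.0489% of unchanged genes. The simulation was simpler than the data. Its 200 changed genes excluded those of low mean, all other means were equal across groups, and same-numbered libraries shared no deviation.

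Same-numbered libraries deviated together from their group means at 0 h and 3 h (6 pairs of groups, correlation across genes 0.334 to 0.565), as did those of the 24 h groups of both genotypes (1 pair, 0.242). The reported tests have no replicate term; for comparisons within 0 h and 3 h, or within 24 h, the value with a replicate block is given beside a result whose call it changes. A pairing is hinted at by the data alone, since the labels say nothing of it. The pairs of a 24 h group with a 0 h or 3 h group gave 0.0428 to 0.108. Libraries of a group correlated at 0.984 to 0.991 and differed by more than sampling noise (chi-square per degree of freedom 6.30 to 24.6).

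All 10 members are named. Of other lists, up to 4 genes per comparison are named, mostly from those with the smallest adjusted p among the called ones. Among the exceptions are PHO1, given beside WRKY6, FRK1, given in both genotypes, and clock genes given for their replicate differences. A gene plotted apart from the rest is named too. The members and the lists were chosen with earlier results of these data known. Names and annotation came from RefSeq TAIR10.1, and Python 3.11.15 with pandas 2.3.3 prepared the tables.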

Additional observations from a re-analysis of the deposited data

How the results depend on the processing

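Each count of called members was recomputed under 24 alternatives. At 3 h against 0 h, the 5 calls in cbfs-1 became 1 when the libraries of those groups alone were fitted and 2 in limma without the trend, and the 6 calls in WT became 3 with those libraries alone. Leaving out a library gave 1 to 5 calls in cbfs-1 (1 without 0 h replicate 2 or 3 h replicate 1, 2 without 3 h replicate 2, 3 without either cbfs-1 24 h library) and 2 to 6 in WT (3 without 0 h replicate 2, 2 without 3 h replicate 1). At 24 h against 0 h, the 3 calls in cbfs-1 became 5 with the replicate block by time, and the 2 calls in WT became 5 with that block and 4 with upper-quartile scaling. Leaving out a library there gave 1 to 4 calls in cbfs-1 (1 without either cbfs-1 24 h library) and 2 to 4 in WT (4 without 0 h replicate 1). From 3 h to 24 h, the 5 calls in cbfs-1 became 8 with the libraries of those groups alone and 3 to 6 without a library (3 without 24 h replicate 2). The 6 calls in WT became 1 to 7 without a library (2 without either 3 h library, 1 without 24 h replicate 2).

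Between cbfs-1 and WT at 24 h, the replicate block gave 1 call in place of 0, WRKY60 (adjusted p = 0.0239), and so did the block by time (1 call, adjusted p = 0.00508); 0 to 0 were called without a library. The other genotype comparisons and both differences of response stayed at 0 in all alternatives, the leaving out of a library included (0 to 0). With the replicate block, WRKY33 also passed at 24 h against 0 h (adjusted p = 0.0207 in cbfs-1 and 0.0294 in WT) and from 3 h to 24 h in WT (0.0232), and WRKY40 from 3 h to 24 h in cbfs-1 (0.0199). Of 27 calls of single members, 9 held in all their alternatives, and of 83 comparisons without a call 15 gained one in at least 1. No alternative changed the sign of a called member (0 of 646 values), and none called a member in the opposite direction. The value minimum of 100 leaves out WRKY53. The causes of these moves were not tested. With 2 libraries a group, 79% of 100 simulated 2-fold changes were called for cbfs-1 at 3 h against 0 h, so changes of that size can be missed. The simulation was simpler than the data, so that share need not hold for these members.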
